A study of Mus musculus with 6 samples.

Results

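The MYC, MAX and MXD network was followed as 10 genes (Myc, Mycn, Mycl, Max, Mga, Mnt, Mxd3, Mxd4, Mxi1 and Mlx), taken by symbol from a raw count table of 27179 genes, and all 10 were found there. It holds 6 RNA-seq libraries of mESCs, embryonic stem cells of the mouse, grown with serum and LIF, which keeps them pluripotent. Both groups carry Tfe3-ERT2, a form of the lysosomal gene regulator Tfe3 that enters the nucleus when tamoxifen binds its ERT2 part. The 4OHT group (3 libraries) received 4-hydroxytamoxifen at 1 µg/mL for 48 h, and the EtOH group (3 libraries) received the ethanol vehicle. No dose or time is given for the vehicle. The labels do not give the promoter that drives the fusion, whether the line is 1 clone, or whether the 3 libraries of a group are separate cultures, and p-values here speak only for the spread among these 6 libraries. No library here is from 4OHT-treated cells without the fusion, so an effect of the drug and an effect of nuclear Tfe3 cannot be told apart.

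The network works through dimers of basic helix-loop-helix zipper proteins. MYC proteins pair with MAX, bind E-boxes (the letters CACGTG and variants of them) and raise transcription of genes for ribosomes, nucleotides and growth, while MNT and the MXD proteins pair with the same MAX, bind the same sites and recruit SIN3 corepressors. MGA is a large MAX partner that belongs to a polycomb complex, and MLX forms a parallel branch with MondoA and ChREBP that responds to glucose. In mESCs, MYC factors support proliferation and self-renewal, and MAX and MGA are known for keeping germline genes silent.

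Total counts were between 4092877 and 6427880 per library. A count of 3, used as a detection floor, corresponded to between 0.469 and 0.738 CPM (counts relative to the library total, scaled with TMM factors), and it covers counting error only. The 6 defining mESC markers summed to between 3384 and 3505 CPM in EtOH and between 3721 and 3745 CPM in 4OHT. Of these, Esrrb (566 to 882 CPM), Nanog and Zfp42 rose, Pou5f1 fell (791 to 697 CPM), and Sox2 and Dppa5a were not called. Of 8 fibroblast (feeder) markers, summed to at most 25.3 CPM in any library, Lum had no count. The primitive endoderm list of 6 genes was low but higher in 4OHT, without overlap. It summed to between 7.38 and 11.5 CPM in EtOH and between 11.9 and 17.0 CPM in 4OHT. Neither of its 2 tested genes was called. The 7 trophectoderm markers summed to between 445 and 467 CPM in EtOH and between 949 and 969 CPM in 4OHT, mostly from Krt8 and Krt18. All 5 that were tested rose, Eomes 2.61-fold (4.97 to 13.1 CPM), Krt18 2.31-fold, Gata3 2.24-fold (3.48 to 7.93 CPM), Krt8 2.23-fold and Tfap2c 1.16-fold. Of the other 2, Cdx2 had between 5 and 14 counts per library and Elf5 had 1 count in all. The part of these markers in the results on the network was not tested. Tfe3 itself, which pools the endogenous gene with whatever part of the fusion is counted, fell by 0.32 on the log2 scale (edgeR adjusted p = 9.8e-19).

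All 3 activating MYC genes fell in 4OHT, by very different amounts, and the repressor gene Mnt rose. Mycn fell 3.16-fold, Mycl 2.05-fold and Myc 1.22-fold, Mga fell slightly, and Mnt rose 1.34-fold. Max, Mlx, Mxd3 and Mxi1 were not called. Of the 9 members that passed the filter on low counts, 4 were lower and 1 higher at a Benjamini-Hochberg adjusted p under 0.05 in edgeR's quasi-likelihood test, where 20.6% of all 12345 tested genes were lower and 21.4% higher. In either direction 5 of 9 were called, against 42% of all tested genes. The groups of CPM values did not overlap in 5 of 9, against 48.8% of all tested genes, so the members' share is close to that of the whole table. In such bulk samples, fewer cells of a type and less RNA per cell cannot be told apart.

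**Figure D1:**
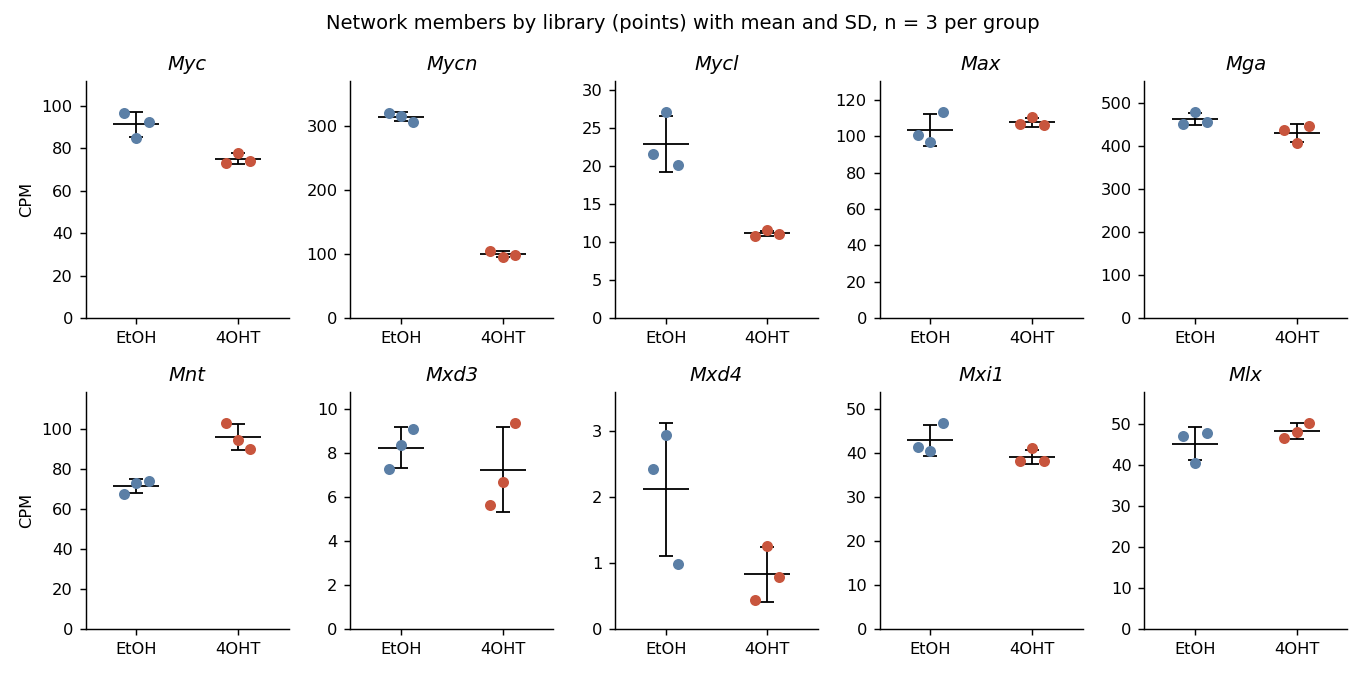
CPM of the 10 members, 1 panel per gene, with 1 point per library (EtOH in blue, 4OHT in red), a black line at the mean and bars of 1 SD (n = 3). Each axis starts at 0. Mycn, Mycl and Myc are lower and Mnt is higher in all 3 libraries of 4OHT, and the groups overlap in Max, Mxd3, Mxd4, Mxi1 and Mlx.

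Mycn (Entrez Gene 18109; chromosome 12, 12936093 to 12941836 in mm10, which is GRCm38, minus strand) encodes the MYC factor most used by early embryonic and neural cells. Its level was 321, 317 and 307 CPM with EtOH but 105, 96.3 and 98.9 CPM with 4OHT. The groups stand far apart, and every library of 4OHT is under every library of EtOH. The log2 fold change was −1.66 (SE 0.05, edgeR adjusted p = 1.3e-94). Only 0.316% of the tested genes had a lower log2 fold change, and 98.9% had a smaller change in size. Leaving out any library kept it between −1.69 and −1.63. The promoter of Mycn is shown because this gene carried the largest change among the members. These are the 250 bases before the start listed by RefSeq for GRCm38.p6, at chr12:12941837-12942086 on the minus strand, written 5′ to 3′. None of the 4 strings searched on both strands is in this window, so it has no capitals. These strings were the E-box CACGTG, its longer form TCACGTG, then the variant CACGCG, and last the variant CATGTG.
Mycn: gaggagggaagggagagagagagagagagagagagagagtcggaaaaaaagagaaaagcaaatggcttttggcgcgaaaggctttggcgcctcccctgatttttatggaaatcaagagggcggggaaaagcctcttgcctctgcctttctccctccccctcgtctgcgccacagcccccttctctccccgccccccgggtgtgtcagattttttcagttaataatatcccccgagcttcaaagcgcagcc

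Mycl (Entrez Gene 16918; chromosome 4, 122995588 to 123002490), which encodes L-MYC, a weaker activator, was at 21.5, 27.1 and 20.2 CPM in EtOH and at 10.9, 11.5 and 11.1 CPM in 4OHT. The 3 values of 4OHT lie close together, and the groups do not overlap. The log2 fold change was −1.04 (SE 0.15, edgeR adjusted p = 2.1e-10), and 1.33% of the tested genes had a lower one. Myc (Entrez Gene 17869; chromosome 15, 61985341 to 61990361), the founding member of the family, was at 96.5, 85.0 and 92.5 CPM in EtOH and at 72.9, 77.9 and 74.2 CPM in 4OHT. The groups again do not overlap, but the gap is narrow. The log2 fold change was −0.28 (SE 0.07, edgeR adjusted p = 0.00014), and 16.7% of the tested genes had a lower one. Neither Mycn, Mycl nor Myc shares exon bases with another GENCODE vM21 gene.

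Levels of different genes can be compared only per length, so counts were divided by the deposited gene length and scaled to TPM, which compares transcripts of unlike length. On that scale Mycn was the most abundant member in EtOH, at 272 ± 10.1 TPM (SD, n = 3), followed by Max at 116 ± 7.77, Myc at 85.4 ± 4.09, Mga at 74.7 ± 3.87 and Mlx at 51.2 ± 3.56 TPM. Lower in the order were Mnt at 35.0 ± 1.99, Mxi1 at 17.1 ± 1.13, Mycl at 14.7 ± 2.70, Mxd3 at 14.2 ± 1.59 and Mxd4 at 4.04 ± 1.99 TPM. Values of Mxi1 and Mycl, and of Mycl and Mxd3, overlap between libraries, so these neighbours cannot be ordered. In 4OHT, Max came first at 123 ± 2.41 TPM, and Mycn, at 88.1 ± 3.88, stood just over Myc at 71.4 ± 2.39 and Mga at 70.7 ± 3.92 TPM, which overlap each other. Mlx was then at 55.8 ± 2.86, Mnt at 47.7 ± 2.91, Mxi1 at 15.9 ± 0.614, Mxd3 at 12.7 ± 3.55, Mycl at 7.28 ± 0.231 and Mxd4 at 1.6 ± 0.800 TPM. Mxi1 and Mxd3 overlap there.

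Summed over Myc, Mycn and Mycl, MYC family transcripts were at 379, 379 and 359 TPM in EtOH and at 168, 165 and 167 TPM in 4OHT. Mycn made up 72.8%, 73.9% and 72.7% of that sum in EtOH and 54.8%, 50.9% and 52.8% in 4OHT. Myc made up between 21.4% and 23.7% in EtOH and between 41.1% and 44.6% in 4OHT. The family was thus lower as a whole in 4OHT and divided more evenly between Mycn and Myc. The sum over the MAX-binding repressor genes Mnt, Mxd1, Mxd3, Mxd4 and Mxi1 was 73.0 ± 3.91 TPM in EtOH and 80.9 ± 1.52 TPM in 4OHT (SD, n = 3). Mga, also a MAX-binding repressor gene, is left out of this sum. It alone was about as abundant and went the other way, from 74.7 ± 3.87 TPM in EtOH to 70.7 ± 3.92 TPM in 4OHT.

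**Figure D2:**
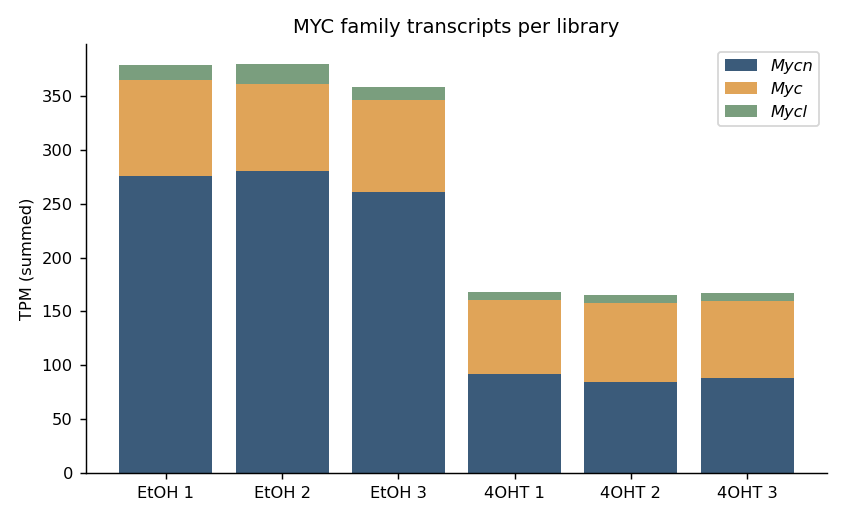
Stacked bars of the TPM of Mycn (dark blue), Myc (orange) and Mycl (green) in each of the 6 libraries, from a base of 0. The bars reach between 359 and 379 TPM in EtOH and between 165 and 168 TPM in 4OHT, and most of the difference lies in the Mycn part.

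Ratios within a library do not depend on the scaling between libraries. Mycn over Myc was 3.08, 3.44 and 3.07 in EtOH and 1.33, 1.14 and 1.23 in 4OHT on the TPM scale. Every ratio of 4OHT is under every ratio of EtOH, a change of −1.37 on the log2 scale. Mycn over Max went from 2.36 ± 0.236 to 0.718 ± 0.0456, so that Mycn transcripts outnumbered those of Max in EtOH and not in 4OHT. Mnt over Max went from 0.303 ± 0.0233 to 0.389 ± 0.0298. Mnt over Mycn went from 0.129 ± 0.00901 to 0.542 ± 0.0230, and Mnt over Myc from 0.411 ± 0.0423 to 0.669 ± 0.0607 (SD, n = 3 each). Of 6 ratios compared, the last being Mycn over Mycl (18.8 ± 2.65 in EtOH and 12.1 ± 0.918 in 4OHT), each gave p = 0.1 in a two-sided exact permutation test over libraries, also after Benjamini-Hochberg adjustment over the 6. That is the smallest p this design allows, so the test cannot pass 0.05.

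Max (Entrez Gene 17187; chromosome 12, 76937269 to 76962323), the partner that MYC, MNT, MXD and MGA proteins share, was at 100.5, 97.0 and 113 CPM in EtOH and at 107, 111 and 106 CPM in 4OHT. The groups overlap, and EtOH replicate 3 is the highest of the 6. The log2 fold change was 0.06 with a 95% interval from −0.06 to 0.18 (edgeR adjusted p = 0.43).

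Among the MAX-binding repressors, Mnt (Entrez Gene 17428; chromosome 11, 74830806 to 74845725), which is expressed in most cells whether or not they divide, was at 67.5, 73.0 and 74.1 CPM in EtOH and at 103, 94.5 and 89.97 CPM in 4OHT. All 3 libraries of 4OHT are above all 3 of EtOH. The log2 fold change was 0.42 (SE 0.07, edgeR adjusted p = 2.0e-08), and 86.2% of the tested genes had a lower one. Mxi1 (Entrez Gene 17859; chromosome 19, 53310128 to 53373293), also called Mxd2, was at 41.5, 40.5 and 47.0 CPM in EtOH and at 38.2, 41.1 and 38.3 CPM in 4OHT. The groups overlap, and the log2 fold change was −0.13 with a 95% interval from −0.31 to 0.05 (edgeR adjusted p = 0.27).

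Mxd3 (Entrez Gene 17121; chromosome 13, 55325170 to 55329900), the MXD gene linked to cells in S phase, was at 7.25, 8.36 and 9.10 CPM in EtOH and at 5.64, 6.67 and 9.37 CPM in 4OHT. Both the lowest and the highest value are in 4OHT. The log2 fold change was −0.14 with a 95% interval from −0.56 to 0.27 (edgeR adjusted p = 0.62), which at this depth leaves room for changes of either sign. Mxd4 (Entrez Gene 17122; chromosome 5, 34176580 to 34187710), linked to differentiating cells, was too low to be tested. EtOH gave 12, 13 and 4 counts, 4OHT gave 2, 7 and 5, and the groups overlap. Mxd1, a further family member outside the 10, was at 5.44 ± 0.212 CPM in EtOH and 5.85 ± 0.744 CPM in 4OHT (a change of 0.12 in log2, edgeR adjusted p = 0.73). Mxd3 shares 4.43% of its exon bases with Prelid1 on the opposite strand. Mxd4 shares 6.06% and Mxi1 2.84%, each with a gene model on the opposite strand. The strand setting of the counting is unknown here.

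Mga (Entrez Gene 29808; chromosome 2, 119872503 to 119970129), which has both a T-box and a MAX-binding zipper region, was at 453, 480 and 457.6 CPM in EtOH and at 439, 408 and 447 CPM in 4OHT. The groups do not overlap, though EtOH replicate 1 and 4OHT replicate 3 lie close. Its log2 fold change was −0.10 (SE 0.04, edgeR adjusted p = 0.017). The call was lost without EtOH replicate 2 (edgeR adjusted p = 0.12, −0.08 on the log2 scale), without 4OHT replicate 2 (0.20, −0.06 on the log2 scale) and in DESeq2 (adjusted p = 0.058).

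Mlx (Entrez Gene 21428; chromosome 11, 101086707 to 101092207), the partner of the glucose-responsive factors, was at 47.1, 40.5 and 47.7 CPM in EtOH and at 46.4, 48.0 and 50.3 CPM in 4OHT. The groups overlap, and the log2 fold change was 0.10 with a 95% interval from −0.07 to 0.27 (edgeR adjusted p = 0.36). Mlx shares 19.3% of its exon bases with Psmc3ip on the opposite strand. Its partner genes Mlxip (MondoA) and Mlxipl (ChREBP) were at 51.0 ± 1.97 and 5.05 ± 1.13 CPM in EtOH and at 51.0 ± 0.827 and 3.95 ± 0.825 CPM in 4OHT, and neither was called (log2 fold changes −0.00377 and −0.36, edgeR adjusted p = 0.98 and 0.31). The change of Mlxip took the other sign with no filter and without each of 3 libraries, at most 0.03.

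**Figure D3:**
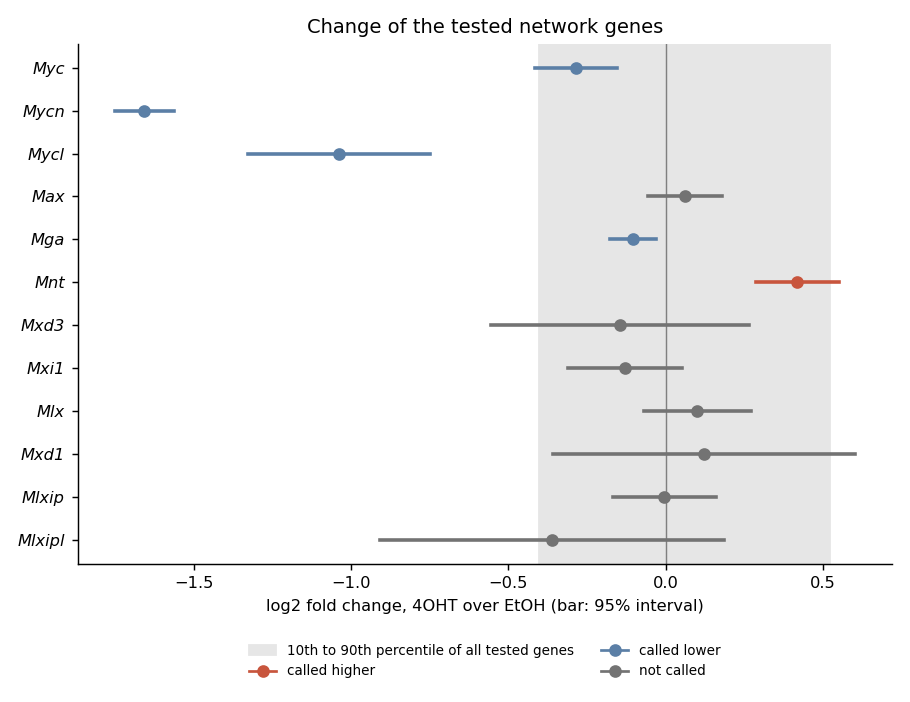
Log2 fold change, 4OHT over EtOH, of the 9 tested members and of Mxd1, Mlxip and Mlxipl, with 95% intervals as bars (red called higher, blue called lower, grey not called). The shaded band runs from −0.40 to 0.52, the middle 80% of all tested genes, and of the 12 genes Mycn and Mycl lie outside it.

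E-box letters were looked for in the same 250-base windows of the members. The listed starts are not always the first base of the gene spans printed above. The windows of Mycl, Mga, Mlx and Mxi1 lie inside those spans, and those of Max, Mnt and Mxd3 do so in part. Sites in Mycl, Mga, Mlx and Mxi1 thus lie before the listed start but after the first base of the span. RefSeq windows matched 9 of the 10 members. The canonical CACGTG, a palindrome that reads alike on both strands, was in 3 of these 9, those of Mnt, Mlx and Mxd4, and in 6.86% of the 27025 genes with a window. It began 123, 40 and 219 bases before the listed starts. In Mlx a T precedes and an A follows it, so that TCACGTG, the form with the flanking T that MiT/TFE factors favour, is read on each strand, overlapping itself and containing CACGTG. This longer form was in 3.58% of genes. The variant CACGCG was in the windows of Mycl and Mga and in 8.65% of genes. CATGTG was in 1 of the 3 windows of Mxi1 and in 13.8% of genes. The 30-base stretches around the E-boxes are shown with these letters in capitals, for the called members Mnt, Mycl and Mga and for Mlx, at chr11:74830789-74830818, chr4:122995899-122995928, chr2:119897195-119897224 and chr11:101087238-101087267, all on the plus strand and written 5′ to 3′. The capitals of Mga are CACGCG as read from the other strand. Such matches describe letters and do not show binding.
Mnt: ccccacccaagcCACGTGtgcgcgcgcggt
Mycl: ccaagccccgggCACGCGacgagatataaa
Mga: agctggtaggagCGCGTGcgcagtgacgtg
Mlx: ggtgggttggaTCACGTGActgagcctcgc

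Among the genes most like Mycn in log2 CPM over the 6 libraries, by Pearson's r, were Dnmt3b and Lefty2 (r = 0.999 each). Dnmt3b encodes a de novo DNA methyltransferase and Lefty2 an inhibitor of Nodal signalling. They had log2 fold changes of −0.99 and −1.85. For Mnt, D130040H23Rik (r = 0.998) and Zfp169 (r = 0.997) were among the nearest. Such values rest mostly on the difference between the groups, which all these genes share with many others.

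Genes of the growth programme that MYC is known to drive were mostly lower in 4OHT. Of 70 listed and tested, 59 fell and 2 rose, and 9 were not called, where 20.6% of all tested genes fell and 21.4% rose. The median log2 fold change was −0.26, against −0.00240 over all tested genes. These genes are abundant, which makes small changes easier to call. Among genes with a mean of at least 50 CPM, a limit chosen after seeing the data, 53 of 62 listed genes fell and 2 rose, where 31.1% of 4667 such genes fell and 27% rose. Ncl, encoding the nucleolar protein nucleolin, was at 4854, 4639 and 4894 CPM in EtOH and at 3774, 3782 and 3925 CPM in 4OHT (a log2 change of −0.33, edgeR adjusted p = 2.8e-27). Npm1, encoding the ribosome chaperone nucleophosmin, was at 2371, 2237 and 2377 CPM in EtOH and at 1710, 1660 and 1776 CPM in 4OHT (1.36-fold lower, edgeR adjusted p = 3.8e-36). Odc1, the first enzyme of polyamine synthesis and a classic E-box target of MYC, was at 604, 585 and 613 CPM in EtOH and at 423, 461 and 442 CPM in 4OHT (1.36-fold lower, edgeR adjusted p = 1.1e-25). In none of these 3 genes do the groups overlap. The changes of these 3 genes are small next to that of Mycn. Whether the growth genes follow the change of any MYC gene was not tested.

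The list was split into 6 roles after the values were seen, and most genes fell in 5 of them. Of 35 genes of ribosome assembly in the nucleolus 32 fell and none rose (median log2 fold change −0.26), and of 11 genes of polyamine and nucleotide synthesis 10 fell and none rose (median −0.39). The steepest of these, named after their values were seen, were Dctpp1, which clears abnormal nucleotides (1.69-fold lower), and the spermidine synthase gene Srm (218 ± 14.2 to 145 ± 5.52 CPM, log2 fold change −0.58). Of 7 translation factors and arginine methyltransferases 6 fell, as did 4 of 6 genes of mitochondrial chaperones and expression and 5 of 6 of glycolysis, iron and other transport. Of 5 genes of the cell cycle, replication and telomeres 2 fell, 1 rose and 2 were not called (median −0.15). The genes that rose were Hk2, a hexokinase that starts glycolysis (446 ± 10.2 to 547.6 ± 10.47 CPM, edgeR adjusted p = 2.4e-13), and Cdk4, a G1 kinase (498.5 ± 15.2 to 536 ± 16.7 CPM, edgeR adjusted p = 0.014). The call of Cdk4 was lost with upper quartile factors, in DESeq2 (adjusted p = 0.055) and without EtOH replicate 2 or 4OHT replicate 2 (edgeR adjusted p = 0.097 and 0.069), and it shares 19.7% of its exon bases with Tspan31 on the opposite strand. Ccnd2, a D-type cyclin named after its values were seen, fell most, from 17.1 ± 3.04 to 6.13 ± 1.12 CPM (2.84-fold, edgeR adjusted p = 1.3e-13).

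**Figure D4:**
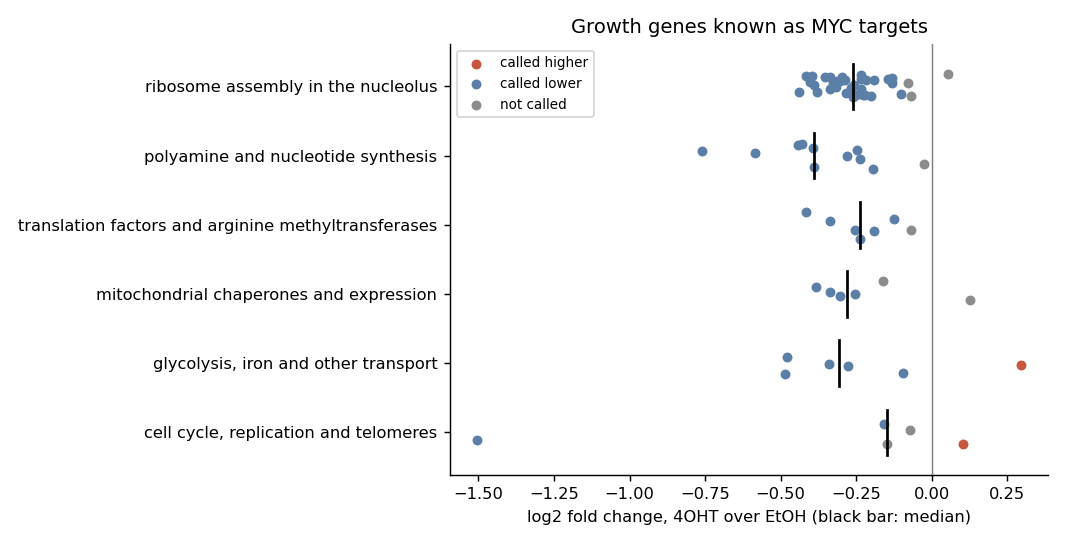
Log2 fold change, 4OHT over EtOH, of the 70 growth genes, 1 point per gene in rows by role (blue called lower, red called higher, grey not called), with a black bar at each row's median. Most points lie left of 0, and Ccnd2 stands apart at −1.504.

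Of 17 tested genes of MYC coactivators 4 rose and 3 fell (median log2 fold change −0.00384), or 23.5% and 17.6%, near the 21.4% and 20.6% of all tested genes. The acetyltransferase gene Ep300 rose from 244 ± 11.6 to 275 ± 12.2 CPM, and Trrap (1.12-fold), a scaffold that MYC binds, Crebbp (1.18-fold) and Ep400 (1.08-fold) rose as well, the last in groups that overlap. The counts of higher genes fell to 2 in DESeq2, without EtOH replicate 1 and without 4OHT replicate 3. Crebbp lost its call in the first and last of these and without EtOH replicate 2, Ep400 in all 3, without EtOH replicate 3 and with upper quartile factors, and Trrap without EtOH replicate 1. The helicase genes Ruvbl1 and Ruvbl2, which work as 1 complex in ribosome and chromatin assembly, fell by 0.30 and 0.32 on the log2 scale, and Actl6a fell by 0.21. Of 14 tested genes of the SIN3 and NCoR corepressors used by MXD and MNT proteins, 3 rose and 4 fell (median −0.09), or 21.4% and 28.6%, also near those shares. Sin3b rose from 95.9 ± 4.16 to 137 ± 0.346 CPM (edgeR adjusted p = 1.0e-15), whereas Sin3a fell from 268 ± 3.75 to 231 ± 5.68 CPM (edgeR adjusted p = 8.3e-06). The scaffolds thus changed in opposite directions. Ncor1 (1.14-fold) and Sap30 (1.21-fold) also rose, and Rbbp4 (1.14-fold), the deacetylase gene Hdac2 (1.19-fold) and Ing1 (1.20-fold) fell.

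Of 21 tested genes that set the stability of MYC proteins, 2 rose and 6 fell (median log2 fold change −0.05). The share called in either direction was 38.1%, against 42% of all tested genes. Pim2, a kinase reported to stabilise MYC, was at 121, 119.8 and 119.6 CPM in EtOH and at 30.6, 34.8 and 33.9 CPM in 4OHT, which is 3.61-fold lower (edgeR adjusted p = 3.6e-67). The deubiquitinase gene Usp28, which opposes degradation by FBXW7, fell 1.38-fold, and Set, an inhibitor of the phosphatase PP2A, fell 1.44-fold. Gsk3b, the kinase that marks MYC for FBXW7, rose 1.14-fold in groups that overlap (edgeR adjusted p = 0.015), a call lost in DESeq2 (adjusted p = 0.12), without EtOH replicate 3 (edgeR adjusted p = 0.31) and without 4OHT replicate 3 (0.094). Fbxw7, Skp2, Huwe1 and Aurka, outside the rule for named genes, stayed uncalled, at log2 changes of 0.10, −0.02, −0.05 and −0.03. Of 7 genes of MYC-binding proteins, 4 fell and 1 rose (57.1% and 14.3%), where 20.6% of all tested genes fell and 21.4% rose. Cdca7l, a MYC-binding partner, fell 1.94-fold, from 34.7 ± 1.78 to 17.96 ± 3.04 CPM (edgeR adjusted p = 4.7e-13). Its relative Cdca7, a known MYC target, fell 1.45-fold. Bin1, an inhibitor of MYC, rose 1.39-fold (edgeR adjusted p = 0.0012). Mycbp and Tfap4 fell 1.23-fold and 1.22-fold in groups that overlap, and both calls were lost in DESeq2 (adjusted p = 0.12 each) and without EtOH replicate 2. Mycbp also lost its call without 4OHT replicate 3, and Tfap4 without EtOH replicate 3 or 4OHT replicate 1.

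MGA and MAX belong to the variant polycomb complex with PCGF6. Of its 14 tested partner genes 8 fell and 1 rose (median log2 fold change −0.24), or 57.1% and 7.14%, where 20.6% of all tested genes fell and 21.4% rose. Pcgf6, which defines the complex, was at 116, 117 and 121 CPM in EtOH and at 90.1, 84.8 and 85.6 CPM in 4OHT (1.36-fold lower, edgeR adjusted p = 4.8e-11). Cbx1, a reader of silent chromatin, fell 1.32-fold and Tfdp1, the partner of E2F6, 1.31-fold. L3mbtl2 and Rnf2, outside the rule for named genes, were at log2 fold changes of −0.00340 and 0.02 and were not called. Hdac1, Hdac2 and Wdr5 are also on the corepressor or coactivator list, so the fall of Hdac2 is counted there as well. Rybp rose 1.10-fold (edgeR adjusted p = 0.049) in groups that overlap. That call was lost in DESeq2 and limma-voom, with either other scaling, with no filter, and without any 1 of EtOH replicates 2 and 3 and 4OHT replicates 1 and 2 (adjusted p between 0.051 and 0.26).

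Of 23 germline and meiosis genes 17 passed the filter on low counts, and of these 7 fell and 1 rose (median log2 fold change −0.36), or 4 and 1 in DESeq2. Over all tested genes 20.6% fell and 21.4% rose in edgeR, while in DESeq2 1761 of 12345 fell and 1926 rose. Genes that pass only through the group in which they are higher are bound to differ, so these counts are a description. Meioc, needed for meiotic prophase, was at 22.4, 28.0 and 15.3 CPM in EtOH and at 6.95, 7.57 and 11.1 CPM in 4OHT (2.52-fold lower, edgeR adjusted p = 1.4e-11). Zcwpw1, a histone reader of meiosis, fell 1.82-fold and the germ cell helicase gene Ddx4 1.28-fold, while the cohesin gene Stag3 rose 1.26-fold. Dazl, outside the rule for named genes, had 6.27 ± 0.404 CPM in EtOH against 5.90 ± 0.416 in 4OHT, with no call.

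Of 10 genes known as targets of MLX and its partners 8 were tested, of which 5 fell and none rose (median log2 fold change −0.20), where 20.6% of all tested genes fell and 21.4% rose. The 2 best known, Txnip and Arrdc4, arrestins that restrain glucose uptake, fell most. Txnip was at 264, 290 and 262 CPM in EtOH and at 170, 179 and 183 CPM in 4OHT (1.53-fold lower, edgeR adjusted p = 1.0e-30). Arrdc4 was at 60.2, 60.6 and 62.7 CPM in EtOH and at 41.2, 35.0 and 36.7 CPM in 4OHT (1.63-fold lower, edgeR adjusted p = 1.3e-13). Both sets of values leave a clear gap between the groups. The lipid synthesis genes Acly, Fasn and Acaca fell 1.13-fold, 1.12-fold and 1.17-fold, and the call of Acaca was lost in DESeq2 (adjusted p = 0.083) and without EtOH replicate 2 or 4OHT replicate 2 (edgeR adjusted p = 0.099 and 0.072).

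**Figure D5:**
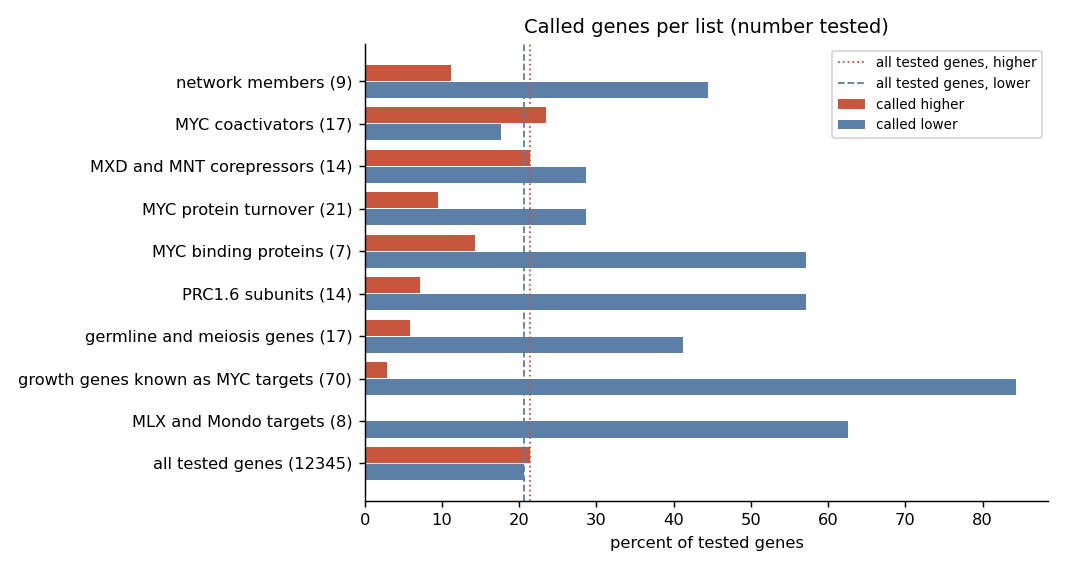
Percent of the tested genes of each list called higher (red) and lower (blue) in 4OHT, with the number tested in brackets and lines at 21.4% and 20.6%, the shares over all tested genes. The growth genes reach 84.3% lower, and the coactivators and corepressors stay near the lines.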

How the data were processed

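RNA-seq of 6 libraries of Tfe3-ERT2 mESCs was used, 3 per group. The authors deposited unnormalized read counts for each gene together with gene lengths, and the labels name a stranded mRNA kit. Per the submitters' processing notes, fastp, STAR and featureCounts were used on mm10. Their versions, the annotation, the strand setting and the handling of multiply matching reads were not given in the sources used here, which leaves overlapping genes and genes with near-identical copies (such as Npm1) less certain. Opposite-strand overlap also covers 22.4% of the exon bases of Cdca7l, 19.4% of Txnip and 18.0% of Rbbp4. For L3mbtl2, Ruvbl2, Pou5f1 and Actl6a it covers 17.2%, 15.4%, 14.1% and 11.6%. Genes with an Entrez number but no symbol (1314, at most 0.478% of a library) stayed in the fit.

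Counts were fitted with edgeR 4.0.16 (R 4.3.3; TMM factors, filterByExpr with a minimum count of 10 and total of 15, robust quasi-likelihood test) on 12345 genes, with Benjamini-Hochberg adjustment and a threshold of 0.05. SEs come from the log2 change and its F value (absolute change over root F), and 95% intervals use the fit's degrees of freedom. On data simulated for this comparison (12215 genes, 50 changed at each fold), the fit recovered 48% of 1.25-fold changes and 78% of 1.5-fold ones. Recovery was 98% for 2-fold and 100% for 4-fold, and 6.90% of 174 calls were false. The changed genes were drawn without the lowest expressed ones, for which recovery was not measured. In the real libraries 5189 genes were called, so recovery there can differ. Every pair of libraries differed by more than counting error.

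Members, lists and tests were chosen with earlier results of these data known. Named were the members, Mxd1, Mlxip, Mlxipl and Tfe3. From each other list the rule named the 3 genes with the smallest p per direction, or all where 5 or fewer were called, and for the member with the smallest p per direction the 3 genes most alike. Some genes that the rule names are not reported here. Alternatives were other scaling (DESeq2 size factors, upper quartile), other filters (none, 1 CPM in 3 libraries), a replicate block, other tools (limma-voom 3.58.1, DESeq2 1.42.0) and leaving out libraries singly.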

Additional observations from a re-analysis of the deposited data

How the results depend on the processing

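Over 13 alternatives, the calls of Mycn, Mycl, Myc and Mnt held in each, and the count of higher members stayed at 1. The count of lower members was 4, between 3 and 5 when 1 library was left out, 3 in DESeq2 and 5 with no filter or 1 CPM in 3 libraries, where Mxd4 was also tested (log2 fold change −1.32, edgeR adjusted p = 0.043 with no filter). Under the replicate block 1 member was higher and 4 lower, 59 growth genes were lower, and 2585 genes in all were higher and 2497 lower (2643 and 2546 without it). No sign was seen that the replicate numbers pair the libraries. Deviations of same-numbered libraries correlated at −0.02, −0.02 and −0.02 across genes, and no library correlated best with its own number. A weak pairing could be missed this way, as counting noise enters these deviations. Mlxip reversed with no filter (0.0030) and ranged from −0.029 to 0.029 when 1 library was left out. DESeq2 gave 2 higher coactivators, 1 higher turnover gene, 2 lower MYC-binding genes, 0 higher polycomb partners, 4 lower germline genes and 1 higher growth gene. Over all tested genes DESeq2 called 1926 higher and 1761 lower, also fewer than the 2643 and 2546 of the main fit. The single higher polycomb partner, Rybp, was also lost (0) in limma-voom, with no filter and with either other scaling, and upper quartile factors left 1 higher growth gene. Without 1 library the counts ranged from 2 to 4 for higher coactivators, 1 to 3 for higher turnover genes, 2 to 4 for lower MYC-binding genes, 0 to 1 for higher polycomb partners, 1 to 2 for higher germline genes and 1 to 2 for higher growth genes. Over all tested genes, leaving out 1 library gave between 2306 and 2544 higher and between 2129 and 2407 lower. The cause of these differences was not tested. Lower growth genes ranged from 54 to 63 over all alternatives on the whole list. Without division by length, Mycn over Myc in EtOH was 3.46 and Mycn over Max 3.06. Depth limits Mxd3, Mxd4, Mxd1 and Mlxipl, all under 10 CPM.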
